A study of Drosophila melanogaster with 30 samples.

Results

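Neuropeptide receptors are the cell-surface proteins through which peptide hormones and peptide transmitters act, and 35 of their genes in the fruit fly were followed across 5 genotypes and 2 embryonic stages. The genes were chosen by symbol from a fixed list of receptor names. All 35 symbols were found in both deposited tables, which share 14040 genes. In at least 1 of the 10 group means, 34 of the 35 reached a level of 1 TPM, a unit that scales transcript abundance by length to a fixed sum per library, and 22 reached it in all 10 means.

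Most of these receptors span the membrane several times and signal through G proteins to cyclic AMP or calcium. A receptor sets which cells can answer a peptide, so a single peptide can act on neurons, gut, muscle or Malpighian tubule (the fly's kidney) at the same time. In late embryos peptide signalling is known for its part in the behaviour of hatching and moulting, in feeding and in water balance, and apterous, eyes absent, collier and ladybird early are known as regulators of neuron identity.

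RNA was taken from whole Drosophila melanogaster embryos whose neurons expressed added transcription factors under elav-Gal4, a driver mostly active in neurons that no longer divide. The groups were col (elav-Gal4/UAS-col-HA, collier, listed as knot, kn), lbe (elav-Gal4/UAS-myc-lbe, ladybird early), col + lbe (elav-Gal4/UAS-col-HA,UAS-myc-lbe), ap + eya (UAS-Flag-Ap/+; elav-Gal4/UAS-eya-HPC4, apterous with eyes absent), and the control, elav-Gal4 over a chromosome of the OregonR wild-type stock. Every group, the control included, carries 1 copy of the driver. Each genotype was collected late, when the trachea fill with air (AFT), and at embryonic stage 16 (St16), in 3 biological replicates of more than 200 embryos, which makes 30 samples.

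The deposited columns are the authors' means over replicates, 1 value per gene, genotype and stage. No value below therefore has a replicate spread, a test or a p-value, and "higher" and "lower" describe these means. The labels give 30 to 50 M reads per sample, but TPM keeps no depth for single values. Differences are of log2(TPM + 1), given for genes with at least 1 TPM in either group, and 2-fold means a difference of at least 1 on that scale. In whole embryos, fewer cells of a type and less RNA per cell cannot be told apart. Marker genes of neurons, muscle, gut, fat body and Malpighian tubule had levels above 0 in every list at both stages. No listed marker with values was at 0 in all 5 columns, and 7 of the 8 fat body names had values at both stages. The gut enzyme genes were low at St16, with sums from 5.24 TPM in ap + eya to 16.9 in col + lbe. At AFT the misexpressed genes were each higher in the embryos that carried their transgenes, with kn at 104 TPM and lbe at 88.0 TPM in col + lbe, against 12.4 and 0.0488 TPM in the control. The 9 gut enzyme genes summed to 5104 TPM in col + lbe, 2973 in ap + eya, 3169 in col and 2136 in lbe at AFT, against 1137 TPM in the control, and the 12 moulting and tracheal cuticle genes to 437, 503, 508 and 508 TPM in those groups, against 1013 TPM in the control.

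All 35 receptor genes were placed on the BDGP6.54 annotation as protein-coding genes, 13 on 3R, 9 on 3L, 5 each on X and 2R and 3 on 2L. Several lie beside a receptor for the same peptide. PK2-R2 and PK2-R1, both receptors of the pyrokinin made from hugin (Hug), are 4.2 kb apart with 0 protein-coding genes between them. MsR2 and MsR1, receptors of myosuppressin, are 21.7 kb apart with 0 genes between. CCKLR-17D1 and CCKLR-17D3, the sulfakinin receptors, are 37.9 kb apart with 2 genes between. Exons of 5 receptor genes overlap a gene on the opposite strand: the overlap covers 34.5% of the exonic length of Lgr3, 33.2% of Dh44-R2, 26.8% of SPR, 9.79% of rk and 1.22% of RYa-R. Which strand was read is not stated in the labels, so reads from these stretches cannot be told apart.

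The receptors were transcripts of low level. The highest mean was 18.7 TPM, for Dh31-R in col + lbe at AFT, and AstC-R1, a receptor of the somatostatin type, stayed between 0.0255 and 0.0902 TPM in the 10 columns. At AFT, 32 of the 35 reached 1 TPM in col, 31 in lbe, 33 in col + lbe, 31 in ap + eya and 33 in the control. At St16 the counts were 23, 23, 25 and 24 in those 4 misexpressions and 24 in the control. The median receptor gene was at 3.86 TPM in col, 3.28 in lbe, 5.33 in col + lbe, 4.11 in ap + eya and 3.87 in the control at AFT. Its St16 level was 1.39, 1.37, 1.55 and 1.63 TPM in those misexpressions and 1.53 TPM in the control. The sum over all 35 genes stood apart in 1 column, at 239.1 TPM in col + lbe at AFT, against 163.8 in col, 152.1 in lbe, 168.9 in ap + eya and 178.7 TPM in the control. At St16 the sums lay closer together, at 73.4 TPM in col, 70.7 in lbe, 70.0 in col + lbe, 75.4 in ap + eya and 75.2 TPM in the control.

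**Figure D1:**
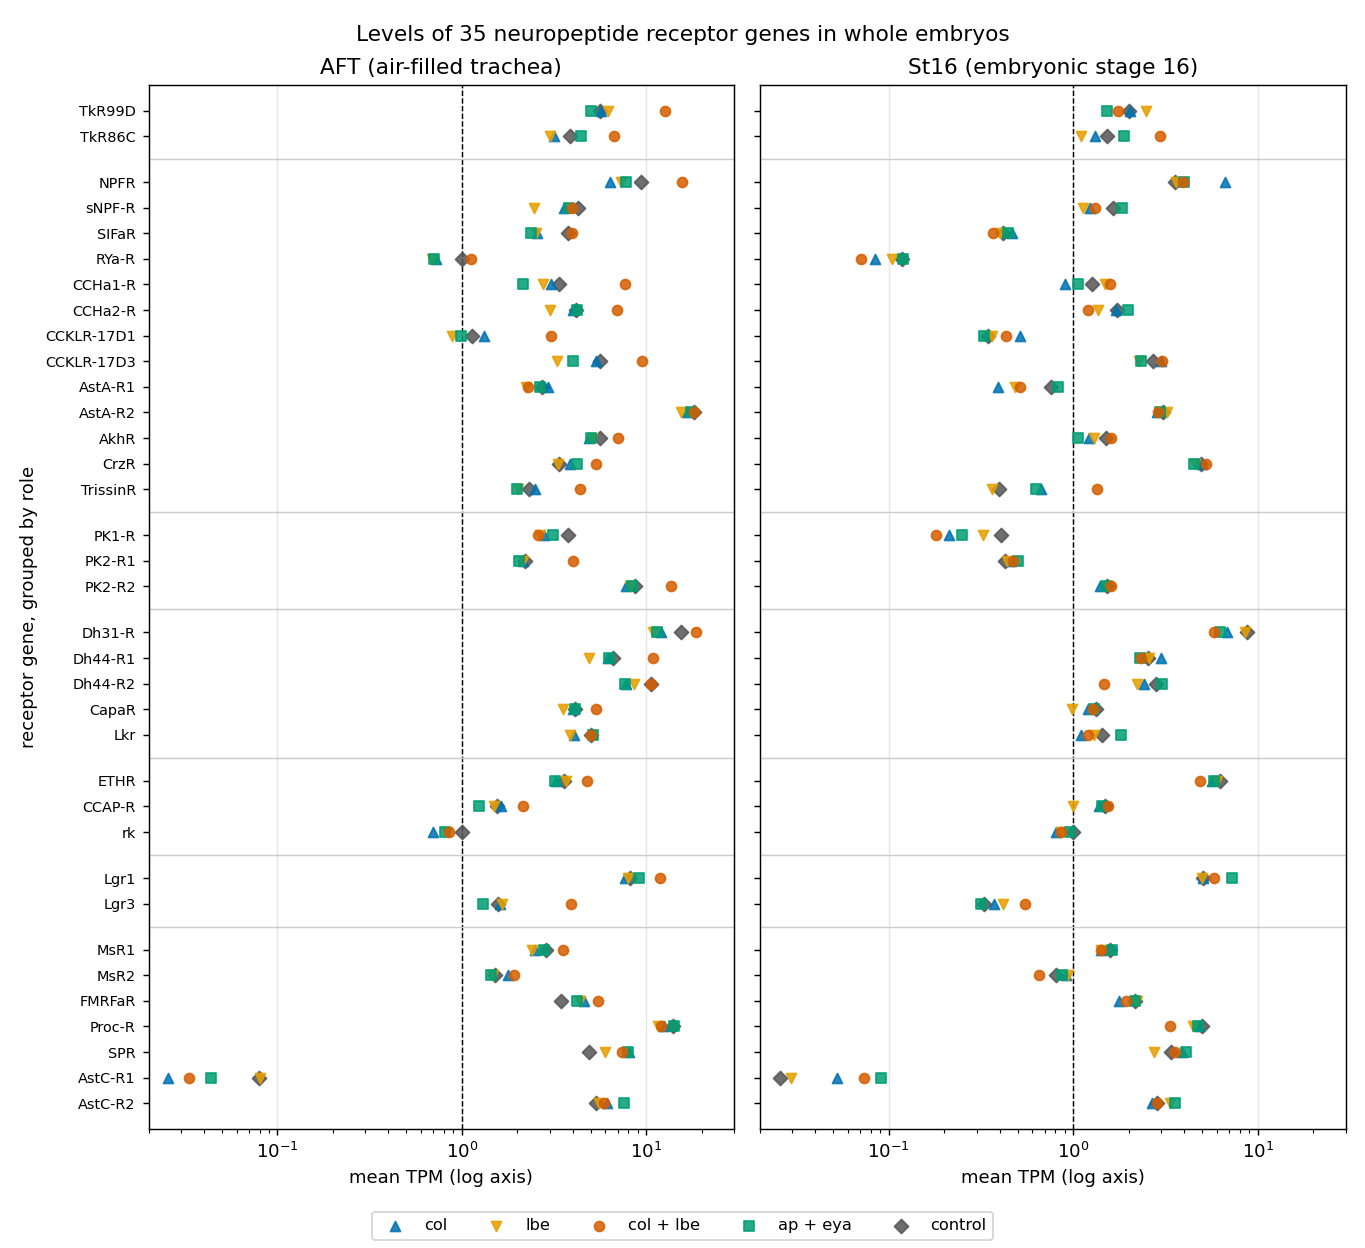
Levels of the 35 receptor genes. The x axes give the authors' mean TPM on a log axis, at AFT on the left and at St16 on the right, and each row is a gene, with rows grouped by role. Each symbol is the mean of 1 genotype, and the dashed line marks 1 TPM. At AFT the col + lbe symbol lies to the right of the others for most genes, as for TkR99D at 12.6 TPM.

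The comparisons with the control were planned on equal terms. That of col + lbe embryos at AFT is given first, a choice made after the data were seen, as the receptors as a group were higher there. The difference was above 0 for 28 of the 34 receptor genes compared, with a median of 0.32, while 63% of the 10119 genes compared were above 0, with a median of 0.11. Of the 34, 1 was at least 2-fold higher (3.33% of all genes) and 0 were at least 2-fold lower (4.02% of all genes). At 1.5-fold, a threshold taken after the data were seen, 12 of the 34 were higher and 0 lower, against 9.98% of all genes higher and 9.17% lower. Among the 5788 genes whose higher mean lay between 1 and 20 TPM, the range of the receptors, 9.76% were at least 1.5-fold higher and 7.69% lower. RYa-R entered through its col + lbe mean alone; with no filter on low values the count was 12 of all 35. The genes named for this threshold were chosen after their values were seen. The count depends on how the columns are scaled. After rescaling each column by its median ratio, which brought the median over all genes to 0.01, 5 of 33 receptor genes were at least 1.5-fold higher, against 7.48% of all genes. Those 5 were CCHa1-R, CCKLR-17D1, Lgr3, TkR99D and TrissinR.

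Related gene groups were described in the same way. Of 21 receptors for amines, acetylcholine, GABA and glutamate, which also signal through G proteins, 0 were at least 1.5-fold higher or lower, and their median was 0.06. The 29 G protein signalling genes that act downstream had 0 in either direction and a median of 0.06. All 14 pan-neuronal marker genes were above 0 (63% of all genes), with a median of 0.24. They summed to 641.9 TPM in col + lbe, against 543.5 TPM in the control. Of the Malpighian tubule markers 6 of 8 were above 0, with a median of 0.24, and of the fat body markers 3 of 5, with a median of 0.21. At St16 the pan-neuronal sum was 581.5 TPM in col + lbe and 503.3 in the control. In col + lbe at AFT all 11 muscle marker genes were below 0, with a median of -0.23. Of these 11, 10 were below 0 in col (median -0.21), 9 in lbe (-0.22) and 7 in ap + eya (-0.13) at that stage. The gut enzyme and cuticle sums given above also differed from the control in col + lbe embryos at AFT. The part of any of these gene groups in the receptors' differences was not tested.

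The tachykinin-related receptors are a pair. TkR99D (FBgn0004622, 3R from 29950796 to 29969447, minus strand), the receptor of the tachykinins, was at 5.68 TPM in col, 6.23 in lbe, 12.6 in col + lbe, 5.04 in ap + eya and 5.65 in the control at AFT. The col + lbe mean alone left the narrow band of the other 4, at 2.24 times the control and a difference of 1.04. At St16 the same gene was at 2.04 TPM in col, 2.49 in lbe, 1.75 in col + lbe, 1.52 in ap + eya and 2.02 in the control, with col + lbe below the control. TkR86C, the receptor of natalisin, stood at 3.16 TPM in col, 3.01 in lbe, 6.70 in col + lbe, 4.45 in ap + eya and 3.87 in the control at AFT. It was highest in col + lbe at St16 too, at 2.95 TPM, with 1.31 in col, 1.10 in lbe, 1.89 in ap + eya and 1.53 in the control. Its differences from the control were 0.66 at AFT and 0.64 at St16.

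Among receptors tied to feeding and energy balance, 6 of 13 were at least 1.5-fold higher in col + lbe at AFT (9.98% of all genes), and CCHa1-R, CCKLR-17D1 and TrissinR were after median-ratio rescaling. CCHa1-R (FBgn0050106, 2R from 17646848 to 17665068, minus strand), the receptor of CCHamide-1, was at 3.05 TPM in col, 2.77 in lbe, 7.70 in col + lbe, 2.14 in ap + eya and 3.35 in the control at AFT. Its col + lbe mean was 2.30 times the control, just short of 2-fold on the log2(TPM + 1) scale, while its ap + eya mean was the lowest of the 5. At St16 its means ran from 0.903 TPM in col to 1.58 in col + lbe, with 1.49 in lbe, 1.06 in ap + eya and 1.27 in the control. CCHa2-R, whose peptide links nutrition to insulin release in larvae, was at 4.00 TPM in col, 3.00 in lbe, 6.92 in col + lbe, 4.24 in ap + eya and 4.14 in the control at AFT.

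NPFR (FBgn0037408, 3R from 6187315 to 6195403, plus strand), the receptor of neuropeptide F, a peptide that promotes feeding, was at 6.39 TPM in col, 7.27 in lbe, 15.6 in col + lbe, 7.77 in ap + eya and 9.35 in the control at AFT. Its St16 means were 6.69 TPM in col, 3.62 in lbe, 3.96 in col + lbe, 4.02 in ap + eya and 3.58 in the control. The high column was thus col + lbe at AFT (0.68 above the control) and col at St16 (0.75 above the control).

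The sulfakinin receptors, relatives of the vertebrate cholecystokinin receptors and linked to satiety, were both highest in col + lbe at AFT. CCKLR-17D3 was at 5.34 TPM in col, 3.28 in lbe, 9.45 in col + lbe, 4.01 in ap + eya and 5.62 in the control at AFT. The St16 levels were 3.00, 2.29, 3.04 and 2.34 TPM in those misexpressions and 2.72 TPM in the control. It was thus highest in col + lbe and lowest in lbe at AFT, with lbe 0.63 below the control on the log2 scale. CCKLR-17D1 (FBgn0259231, X from 18707494 to 18726572, minus strand) was lower in TPM, at 1.32 TPM in col, 0.887 in lbe, 3.06 in col + lbe, 0.989 in ap + eya and 1.14 in the control at AFT. That made col + lbe 2.68 times the control, the largest plain ratio to the control among receptor genes of at least 1 TPM in either group at that stage, and a difference of 0.92 on the log2(TPM + 1) scale. At St16 all its means were between 0.330 and 0.512 TPM.

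TrissinR (FBgn0085410, 2L from 5824004 to 5856767, plus strand), the receptor of the peptide Trissin, was at 2.49 TPM in col, 2.02 in lbe, 4.35 in col + lbe, 1.99 in ap + eya and 2.33 in the control at AFT. At St16 it was at 0.670 TPM in col, 0.364 in lbe, 1.35 in col + lbe, 0.631 in ap + eya and 0.397 in the control. It reached 1 TPM at St16 in col + lbe alone, so its entry into that comparison rests on the column where it was high.

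The remaining receptors of the feeding group showed smaller differences. AstA-R2, an allatostatin A receptor, had the highest control mean of all 35 genes at AFT and hardly varied, with 16.7 TPM in col, 15.4 in lbe, 18.1 in col + lbe, 17.6 in ap + eya and 18.1 in the control. Its St16 means were 2.83, 3.25, 2.87 and 2.96 TPM in those misexpressions and 3.09 TPM in the control. The second allatostatin A receptor, AstA-R1, lay between 2.22 TPM in lbe and 2.93 TPM in col at AFT. sNPF-R, the receptor of short neuropeptide F, was at 3.58 TPM in col, 2.47 in lbe, 3.96 in col + lbe, 3.80 in ap + eya and 4.27 in the control at AFT, the only receptor of this group other than CCKLR-17D3 with an lbe mean at least 1.5-fold below the control on the log2(TPM + 1) scale (-0.60). By plain ratio SIFaR was too, at 0.663 times the control.

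SIFaR, the receptor of SIFamide, was at 2.57 TPM in col, 2.51 in lbe, 3.95 in col + lbe, 2.37 in ap + eya and 3.79 in the control at AFT. At St16 it was between 0.367 TPM in col + lbe and 0.465 in col, with 0.399 in lbe, 0.446 in ap + eya and 0.416 in the control. Its col, lbe and ap + eya means at AFT lay together below those of col + lbe and the control. AkhR, the receptor of adipokinetic hormone that mobilises fat body stores, was at 7.06 TPM in col + lbe and between 4.87 and 5.65 TPM in the other 4 columns at AFT. RYa-R, the receptor of RYamide, passed 1 TPM in 1 of the 10 columns, at 1.12 TPM in col + lbe at AFT, against 0.997 TPM in the control.

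CrzR, the receptor of corazonin, a stress hormone, was at 3.86 TPM in col, 3.33 in lbe, 5.33 in col + lbe, 4.21 in ap + eya and 3.36 in the control at AFT. Its St16 means were 4.97, 4.58, 5.24 and 4.54 TPM in those misexpressions and 4.91 TPM in the control. In col + lbe the 2 stages were thus nearly level, while the other 4 genotypes had the lower mean at AFT.

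The pyrokinin receptors split by peptide. PK2-R2, a receptor of the hugin pyrokinin, was at 7.73 TPM in col, 8.20 in lbe, 13.7 in col + lbe, 8.36 in ap + eya and 8.74 in the control at AFT. At St16 its means lay between 1.40 TPM in col and 1.60 in col + lbe, with 1.55 in lbe, 1.51 in ap + eya and 1.53 in the control. Its neighbour PK2-R1 was also highest in col + lbe at AFT, with 4.02 TPM in col + lbe and between 2.03 and 2.19 TPM in the other 4 columns. PK1-R, the receptor of the pyrokinin made from the Capa gene, was at 2.79 TPM in col, 2.65 in lbe, 2.59 in col + lbe, 3.11 in ap + eya and 3.74 in the control at AFT. It was the receptor gene furthest below the control in col + lbe at AFT (-0.40), and the 1 gene of the 34 with its lowest mean there, against 15.1% of all genes. At St16 PK1-R was under 1 TPM everywhere, at 0.212, 0.326, 0.180 and 0.248 TPM in col, lbe, col + lbe and ap + eya and 0.405 TPM in the control.

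Receptors of diuretic peptides, which set fluid secretion by the tubules, held the highest level of the set. Dh31-R, the receptor of the calcitonin-like diuretic hormone, was at 12.0 TPM in col, 10.9 in lbe, 18.7 in col + lbe, 11.4 in ap + eya and 15.4 in the control at AFT. At St16 it was at 6.82 TPM in col, 8.58 in lbe, 5.77 in col + lbe, 6.23 in ap + eya and 8.81 in the control. Its col + lbe mean was therefore the highest of the 5 at AFT (0.27 above the control) and the lowest at St16 (0.54 below it).

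Dh44-R2, a receptor of the corticotropin-releasing-factor-like diuretic hormone, was at 7.78 TPM in col, 8.61 in lbe, 10.7 in col + lbe, 7.69 in ap + eya and 10.6 in the control at AFT. At St16 it was at 2.41, 2.21, 1.47 and 3.02 TPM in those misexpressions and 2.82 TPM in the control, the 1 receptor gene at least 1.5-fold lower in any comparison with the control at that stage on the log2(TPM + 1) scale (-0.63 in col + lbe). By plain ratio Dh31-R was too, at 0.655 times the control in col + lbe. Of the exonic length of Dh44-R2, 33.2% is shared with CG34234 and fdl on the other strand. CG34234 was at 1.91 TPM in col + lbe, against 3.07 TPM in the control at St16, and the level of fdl is not given singly. The genes that overlap receptor exons on the other strand summed to 20.8 TPM in col + lbe and 19.7 in the control at that stage. Their part in the receptor levels was not tested. Dh44-R1, the other receptor of this hormone, was at 6.22 TPM in col, 4.92 in lbe, 10.9 in col + lbe, 6.31 in ap + eya and 6.61 in the control at AFT, and between 2.30 and 2.98 TPM at St16. CapaR, the tubule receptor of Capa peptides, was at 5.32 TPM in col + lbe and 4.10 in the control at AFT, and Lkr, the leucokinin receptor, at 5.05 TPM in both.

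ETHR, CCAP-R and rk are the receptors of the list that drive ecdysis behaviour. ETHR, the receptor of ecdysis-triggering hormone that starts the sequence, was at 3.25 TPM in col, 3.68 in lbe, 4.76 in col + lbe, 3.22 in ap + eya and 3.59 in the control at AFT. ETHR levels at St16 were higher, at 5.69, 6.04, 4.87 and 5.78 TPM in those misexpressions and 6.26 TPM in the control. CCAP-R, the receptor of crustacean cardioactive peptide, was at 1.62 TPM in col, 1.49 in lbe, 2.15 in col + lbe, 1.25 in ap + eya and 1.56 in the control at AFT, and at 1.39, 1.00, 1.55 and 1.43 TPM in those misexpressions and 1.48 TPM in the control at St16. rk, the bursicon receptor needed for cuticle hardening, stayed between 0.701 and 1.01 TPM in all 10 columns.

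The leucine-rich-repeat receptors bind larger protein hormones. Lgr1, the receptor of the glycoprotein hormone Gpa2/Gpb5, was at 7.69 TPM in col, 8.00 in lbe, 11.9 in col + lbe, 9.10 in ap + eya and 8.19 in the control at AFT. At St16 the high column was another one, with 5.05 TPM in col, 4.98 in lbe, 5.78 in col + lbe, 7.26 in ap + eya and 5.07 in the control. Lgr3 (FBgn0039354, 3R from 25665809 to 25677214, plus strand), the receptor of the relaxin-like hormone Ilp8 that couples growth to developmental timing, was at 1.61 TPM in col, 1.66 in lbe, 3.93 in col + lbe, 1.30 in ap + eya and 1.58 in the control at AFT. Its col + lbe mean was 2.48 times the control, a difference of 0.93. CG4730 and CR45225 on the other strand share exonic sequence with Lgr3. CG4730 was at 1.31 TPM in col + lbe, against 0.832 TPM in the control, and the level of CR45225 is not given singly. The genes that overlap receptor exons on the other strand summed to 14.9 TPM in col + lbe and 14.4 in the control at AFT. Their part in the receptor levels was not tested.

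Receptors of peptides that act on muscle or dampen activity were 7 genes, of which 6 were compared in col + lbe at AFT. None of the 6 was 1.5-fold apart on the log2(TPM + 1) scale (9.98% of all genes higher, 9.17% lower), while by plain ratio FMRFaR was 1.58 and SPR 1.51 times the control. SPR, the receptor of sex peptide and of the myoinhibitory peptides (Mip), was at 8.06 TPM in col, 6.01 in lbe, 7.43 in col + lbe, 7.95 in ap + eya and 4.91 in the control at AFT, so that the control was the lowest column. SPR at St16 was at 3.87, 2.75, 3.56 and 4.08 TPM in those misexpressions and 3.38 TPM in the control. Proc-R, the proctolin receptor, had its lowest mean at AFT in lbe, with 12.4 TPM in col, 11.6 in lbe, 12.1 in col + lbe, 14.1 in ap + eya and 13.9 in the control. At St16 Proc-R was at 4.81, 4.47, 3.34 and 4.75 TPM in those misexpressions and 4.98 TPM in the control, lowest in col + lbe.

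FMRFaR, the receptor of FMRFamide peptides, was higher in all 4 misexpressions than in the control at AFT, at 4.22 TPM in ap + eya, 4.61 in col, 4.39 in lbe and 5.47 in col + lbe, against 3.46 TPM in the control. The myosuppressin receptors differed little, with MsR1 between 2.40 and 3.52 TPM and MsR2 between 1.44 and 1.91 TPM at AFT. AstC-R2, which with AstC-R1 binds allatostatin C, was highest in ap + eya at AFT, at 7.55 TPM, against 5.32 TPM in the control.

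**Figure D2:**
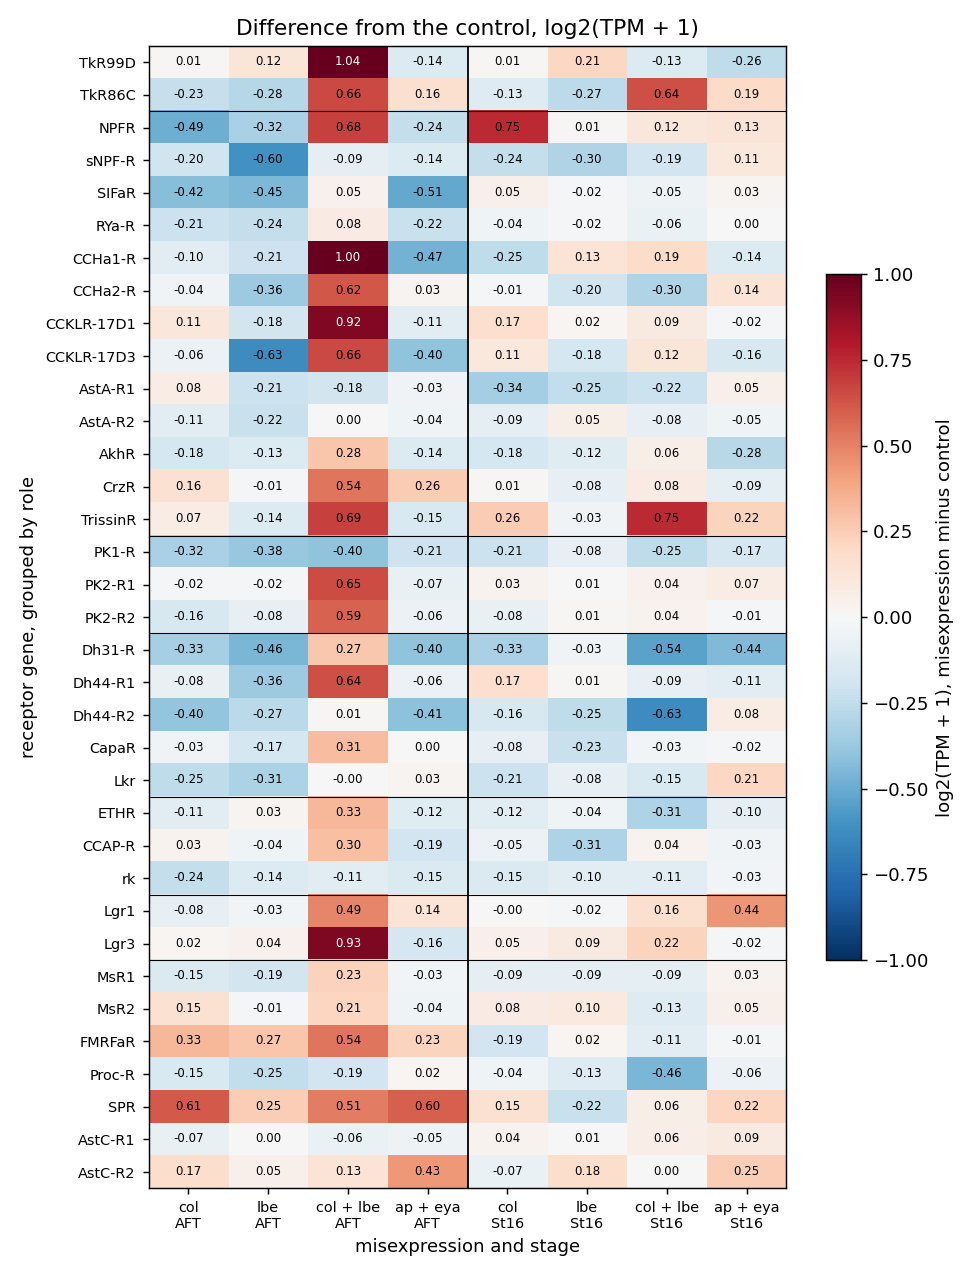
Difference of each receptor gene from the control. Rows are genes grouped by role, columns are the 4 misexpressions at AFT and then at St16, and colour and printed number give the difference of log2(TPM + 1), misexpression minus control, also for genes under 1 TPM in both groups; the colour scale ends at -1 and 1. The darkest red cells lie in the col + lbe column at AFT, led by TkR99D at 1.04, and the 4 misexpressions at St16 stay between -0.63 and 0.75.

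The level in col + lbe can also be set against all other genotypes rather than the control alone. At AFT its mean was the highest of the 5 for 26 of 34 receptor genes (76.5%), while this held for 50.5% of all genes. It was at least 1.5-fold above the highest of the other 4 for 11 of the 34, against 3.42% of all genes. These were CCHa1-R, CCHa2-R, CCKLR-17D1, CCKLR-17D3, Dh44-R1, Lgr3, NPFR, PK2-R1, PK2-R2, TkR99D and TrissinR. At St16 the count was 0 of 25 receptor genes, against 0.231% of all genes, and col + lbe held the highest mean for 8 of the 25 (32%), against 19.3% of all genes. These counts against the other 4 genotypes were made on unscaled columns and were not recomputed after rescaling. The count of receptor genes 1.5-fold above the control at AFT, 12 of 34, was 5 of 33 after either rescaling. The authors' deposited table, which lists genes by a plain TPM ratio of 2 or more with at least 1 TPM in either group, holds 4 of 34 receptor genes (11.8%) for col + lbe at AFT and 1075 of 10109 genes in all (10.6%), nearly the same share. The log2 ratios in the authors' deposited table are 1.42 for CCKLR-17D1, 1.31 for Lgr3, 1.20 for CCHa1-R and 1.16 for TkR99D. At St16 the authors' deposited table lists TrissinR alone for col + lbe, at 1.76, which is 1 of 25 receptor genes (4%) beside 4.66% of all genes, and none of the 35 for col, lbe or ap + eya at either stage.

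The single misexpressions and ap + eya left the receptors close to the control, a column that all 4 comparisons of a stage share. At AFT the kn mean in col and the lbe mean in lbe were below those in col + lbe. In col at AFT, 1 of 33 receptor genes was at least 1.5-fold higher (4.45% of all genes) and 0 were lower (8.2%), with SPR at 0.61. In lbe at AFT, 0 of 33 were higher (3.89%) and 2 lower (8.63%), CCKLR-17D3 and sNPF-R. In ap + eya at AFT, 1 of 33 was higher (4.2%), SPR at 0.60, and 0 were lower (8.2%). The median receptor gene differed from the control by -0.08 in col, -0.18 in lbe and -0.07 in ap + eya, and the median over all genes by -0.10, -0.13 and -0.11 in those groups. The lbe mean was the lowest of the 5 for 15 of 34 receptor genes at AFT (44.1%), against 28.4% of all genes.

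At St16 few receptor genes stood apart from the control. In col, 1 of 24 receptor genes was at least 1.5-fold higher (0.796% of all genes), NPFR, and 0 were lower (1.36%). In lbe, 0 of 24 were higher (0.551%) or lower (1.58%). In col + lbe, 2 of 25 were higher (1.58%), TrissinR at 0.75 and TkR86C at 0.64, and Dh44-R2 was the 1 lower gene (4.99%). In ap + eya, 0 of 24 were higher (1.32%) or lower (2.77%), with Lgr1 furthest above the control at 0.44 and Dh31-R furthest below at -0.44. The medians were -0.02 in ap + eya, -0.08 in col, -0.08 in lbe and -0.03 in col + lbe, and those over all genes -0.02, -0.08, -0.07 and -0.05. On the log2(TPM + 1) scale none of the 24 or 25 receptor genes compared was 2-fold apart at St16. The shares of all genes were 1.61% in ap + eya, 0.623% in col, 0.53% in lbe and 2.41% in col + lbe. By plain ratio TrissinR was 3.39 times the control in col + lbe.

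**Figure D3:**
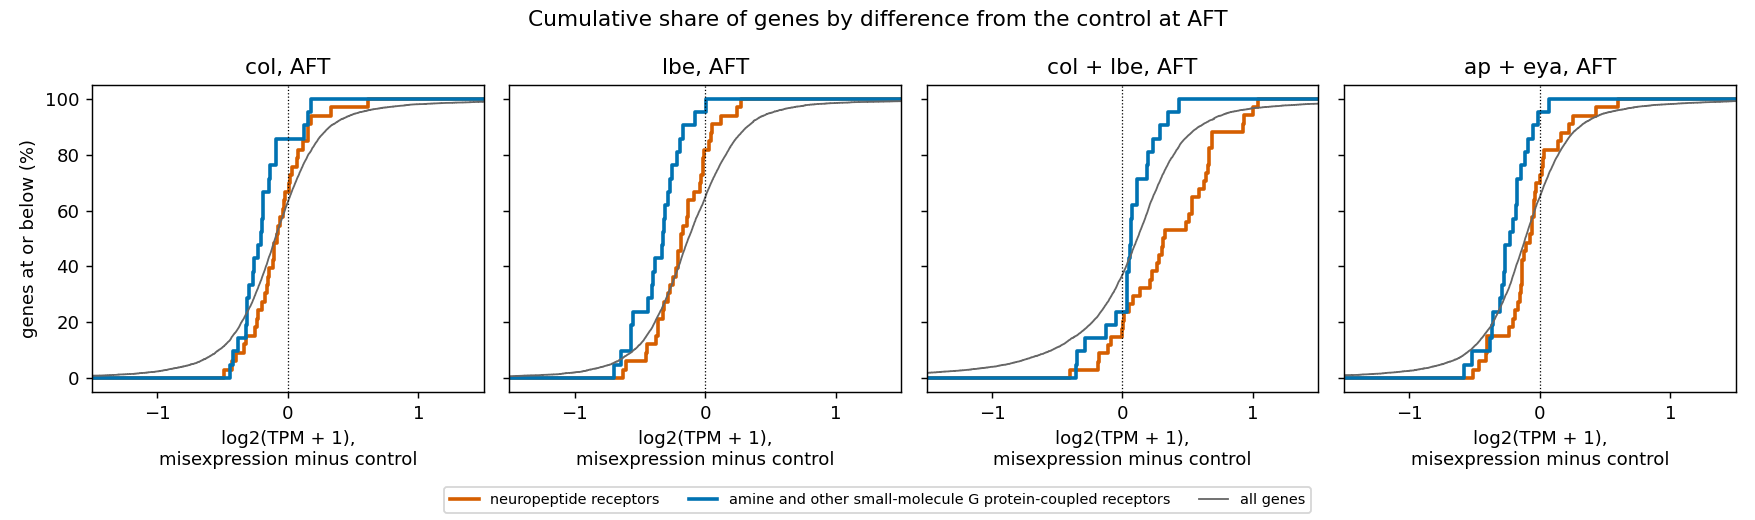
Cumulative share of genes by their difference from the control at AFT, with 1 panel per misexpression. The x axis is the difference of log2(TPM + 1), misexpression minus control, the y axis the percentage of genes at or below it, and the lines stand for the neuropeptide receptors, the amine and other small-molecule receptors and all genes. In the col + lbe panel the neuropeptide receptor line lies to the right, with a median of 0.32 against 0.11 for all genes, and in the other panels it lies near that of all genes.

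The double misexpressions can be compared with each other without the control. They are not separate in ap and eya RNA. In col + lbe at AFT, kn, lbe, ap and eya summed to 248.1 TPM, more than the kn and lbe means given above account for. The rest was ap and eya RNA. The same sum was 64.5 TPM in ap + eya and 18.0 TPM in the control. The part of ap and eya in the col + lbe levels was not tested. At AFT, 5 of 33 receptor genes were at least 2-fold higher in col + lbe than in ap + eya (2.3% of all genes) and 0 lower (1.1%). These were CCHa1-R at 1.47, TkR99D at 1.17, Lgr3 at 1.10, CCKLR-17D3 at 1.06 and CCKLR-17D1 at 1.03, the last of which was under 1 TPM in ap + eya and entered through its col + lbe mean. The median was 0.43, against 0.20 over all genes. This comparison depends on the scaling, since after median-ratio rescaling 1 of 33 was left at 2-fold. At St16, 0 of 25 were 2-fold apart (0.952% of all genes in either direction), and Dh44-R2 was the 1 gene at least 1.5-fold lower (-0.70, against 2.74% of all genes).

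Whether the joint level departs from the sum of the single differences was described by a non-additive value, the col + lbe level minus col, minus lbe, plus the control, on the log2(TPM + 1) scale. At AFT, 7 of 34 receptor genes had a value of at least 1 (6.21% of all genes) and 0 one of -1 or less (2.19%), with a median of 0.59, against 0.31 over all genes. The count depends on the scaling, with 3 of 33 (CCHa1-R, CCKLR-17D3 and NPFR) after median-ratio rescaling and NPFR alone after quantile normalisation. NPFR stood first at 1.5: its means in col and lbe were below the control and its col + lbe mean above it. The others were CCKLR-17D3 at 1.35, CCHa1-R at 1.31, TkR86C at 1.17, Dh44-R1 at 1.08, Dh31-R at 1.06 and CCHa2-R at 1.02. For each of these 7 genes the lbe mean was below the control and the col + lbe mean above it. A low lbe mean and a high col + lbe mean both raise this value, so the pattern follows in part from the selection. Most receptor genes shared each part of it at AFT. In lbe, 27 of 33 differences were negative and 6 positive, while 35.3% of all genes were above 0. For col + lbe, 28 of 34 differences were positive, against 63% of all genes. The ligand genes and the amine receptors had medians of 0.57 on this scale. At St16, TkR86C alone had a value of at least 1, at 1.04 (0.414% of all genes) and under 1 after either rescaling, followed in size by NPFR at -0.64, TrissinR at 0.53 and CCAP-R at 0.40.

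Receptor genes were set beside the genes of their peptides in col + lbe embryos at AFT. Over 35 pairs of 33 receptors and 29 peptide genes with at least 1 TPM, both differences were above 0 in 14 pairs and both below 0 in 4, while the receptor was above and the peptide below in 14 and the reverse held in 3. Across these pairs, which come from the same 2 columns and share some peptides, Pearson's r was -0.192 and Spearman's rho -0.154. Some pairs were high together. Tk, the tachykinin gene, was at 25.6 TPM in col + lbe, against 13.3 TPM in the control (0.90), beside TkR99D at 1.04. CCHa2 was at 41.5 TPM in col + lbe, against 16.5 TPM in the control (1.28), beside CCHa2-R at 0.62, and Dh44 at 14.0 TPM, against 6.13 TPM in the control (1.08), beside Dh44-R1 at 0.64 and Dh44-R2 at 0.01.

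In other pairs the receptor did not follow the peptide. Hug was at 1.51 TPM in col + lbe, against 11.4 TPM in the control (-2.30), while both of its receptors were higher, at 0.65 for PK2-R1 and 0.59 for PK2-R2. NPF was at 3.73 TPM in col + lbe, against 12.8 TPM in the control (-1.54), while NPFR was higher. Proc, the proctolin gene, was at 71.6 TPM in col + lbe, against 19.7 TPM in the control (1.81), beside Proc-R at -0.19. Lk, the leucokinin gene, was at 2.40 TPM in col + lbe, against 11.1 TPM in the control (-1.82), beside Lkr at 0.00, so that its receptor was level. In the same comparison the 29 peptide genes had 3 members at least 2-fold higher and 4 lower, against 3.33% and 4.02% of all genes, with a median of -0.05 against 0.11 over all genes.

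**Figure D4:**
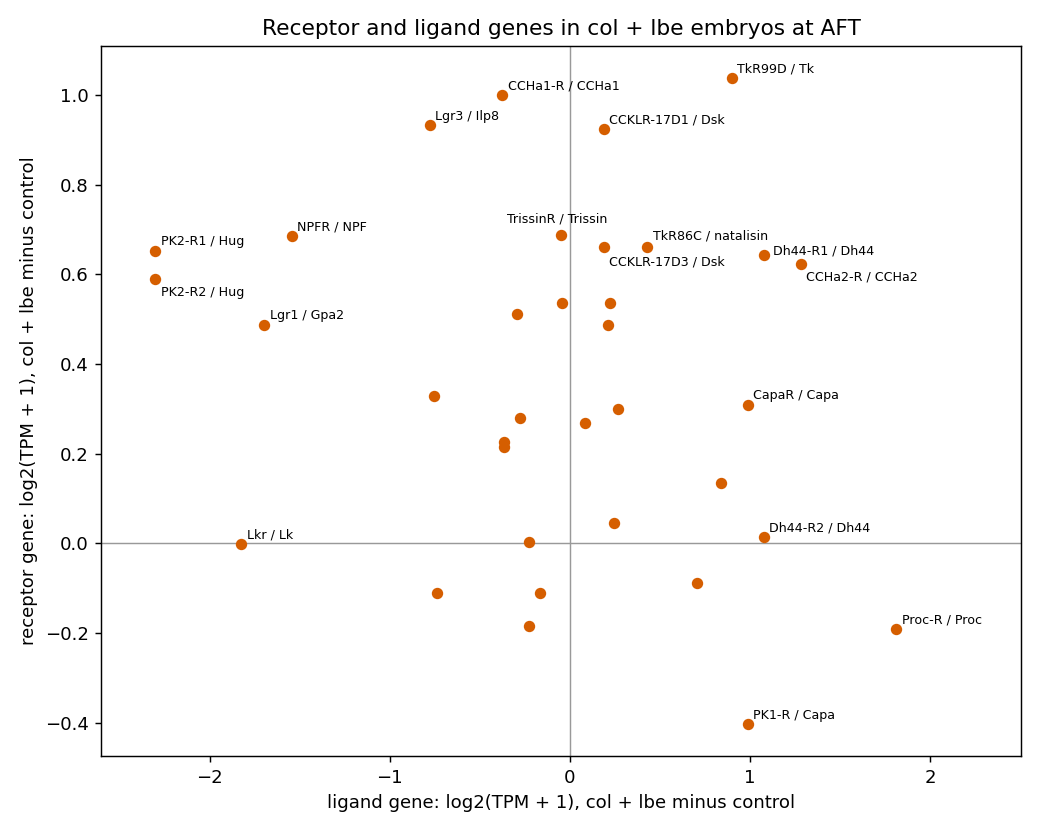
Receptor and peptide genes in col + lbe embryos at AFT. Each point is 1 receptor and 1 of its peptide genes, the x axis is the difference of the peptide gene and the y axis that of the receptor gene, both in log2(TPM + 1), col + lbe minus control. Points lie mostly above the horizontal line at 0, from PK2-R1 with Hug at -2.30 on the left to Proc-R with Proc at 1.81 on the right.

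Most receptor genes were higher at the later stage. In the control, 15 of 33 receptor genes were 2-fold or more above their St16 level at AFT (19% of all genes) and 0 were lower (24.8%). The median was 0.96, while all genes had a median of -0.37. Of the 15, AstA-R1, PK1-R, PK2-R1, SIFaR and TrissinR reached 1 TPM at AFT alone and so entered through the stage where they were high. Among genes of at least 1 TPM at both stages, 10 of 24 receptor genes were 2-fold or more higher at AFT, against 14.8% of all such genes. The stages come from separate tables and differ in read layout, 150 bp paired reads at AFT and 50 bp single reads at St16, so stage and layout cannot be told apart. The largest differences were those of AstA-R2 (2.22, at 18.1 TPM at AFT and 3.09 at St16), PK2-R2 (1.94, at 8.74 and 1.53 TPM), PK1-R (1.76, at 3.74 and 0.405 TPM) and SIFaR (1.76, at 3.79 and 0.416 TPM). ETHR was at 3.59 TPM at AFT and 6.26 at St16 (-0.66), and CrzR at 3.36 and 4.91 TPM (-0.44), and these were the 2 receptor genes of the 33 below 0. CCAP-R and rk, which act with ETHR in ecdysis, were at 0.05 and 0.01.

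Counted in the other genotypes, the receptor genes 2-fold or more above their St16 level at AFT were 12 of 31 in ap + eya (18.3% of all genes), 16 of 32 in col (19.1%), 13 of 31 in lbe (18.6%) and 23 of 33 in col + lbe (20.6%). With at least 1 TPM at both stages, these counts were 9 of 24 in ap + eya (13.7% of all such genes), 10 of 23 in col (14.6%), 7 of 23 in lbe (14.2%) and 17 of 25 in col + lbe (15.6%). At least 2-fold lower at AFT were 0 receptor genes in each of these 4 genotypes, against 28.5%, 25.8%, 26.9% and 20% of all genes. In col + lbe the largest stage differences were those of PK2-R2 at 2.49, AstA-R2 at 2.31, TkR99D at 2.31 and Dh44-R2 at 2.24. NPFR in col was level between the stages, at -0.06, with 6.39 TPM at AFT and 6.69 TPM at St16. In the control, 21 of 29 peptide genes and 9 of 21 amine and other small-molecule receptors were also above their St16 level by 2-fold or more (19% of all genes), with medians of 1.56 and 0.96.

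**Figure D5:**
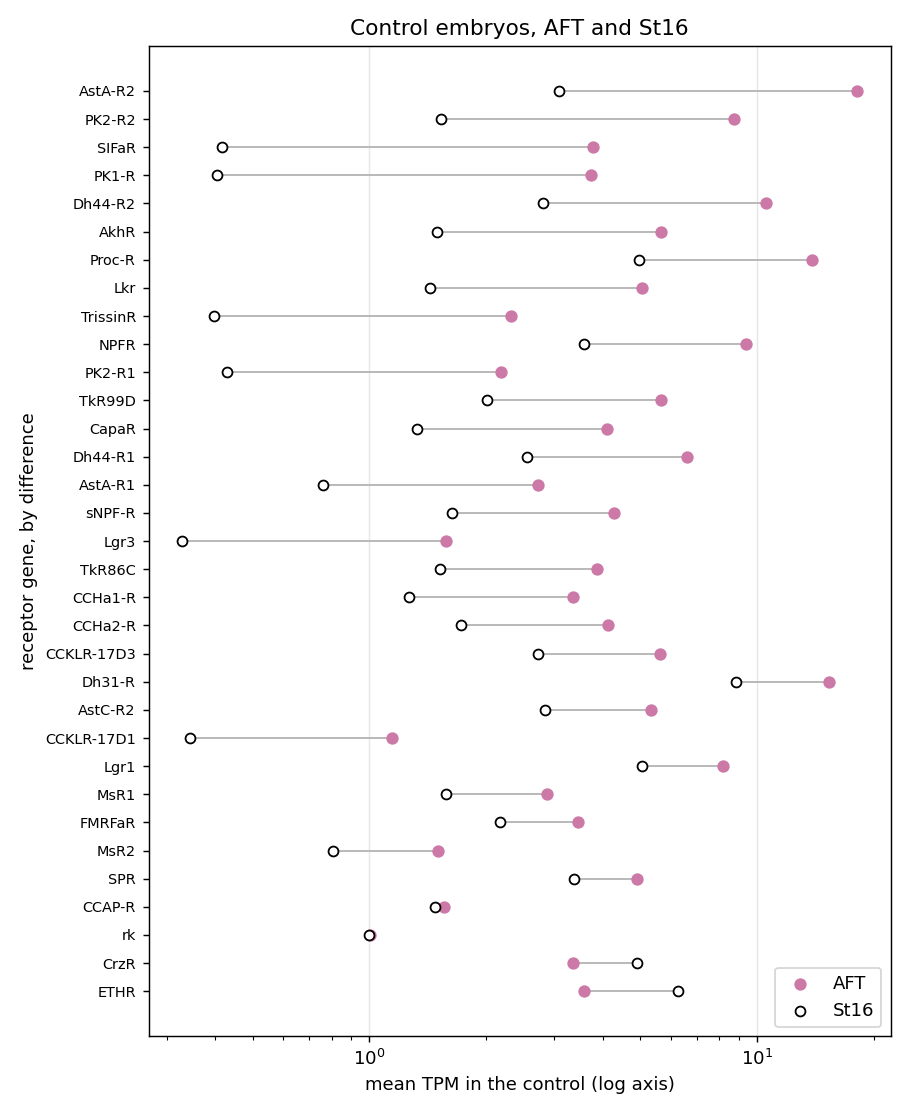
Control levels of receptor genes at AFT and St16. The x axis gives the authors' mean TPM in the control on a log axis, each row is 1 of the 33 receptor genes with at least 1 TPM at either stage, filled points stand for AFT and open points for St16, and rows run from the largest difference at the top. The filled point lies to the right in all rows except ETHR, at 3.59 TPM at AFT and 6.26 TPM at St16, and CrzR.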

How the data were processed

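RNA sequencing of whole embryos gave 30 samples in 10 groups of 3. The submitters' processing notes name kallisto 0.43.1 and the BDGP6 build, with no role or order. The deposited tables, 1 per stage, give TPM per gene as 1 mean per group made by the authors: multiplied by 3, 54.5% of AFT values and 56.2% of St16 values between 10 and 100 TPM were whole to their last decimal place (tolerance 0.02), against at most 28% for other factors. How transcripts were summed to genes and which strand was read are not given in the sources used here. The authors' deposited lists of log2 fold changes were used only where named. Sep1, Sep2, Sep4, Sep5 and dec-1 were restored from dates.

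Group assignment followed the labels and column names. From the deposited TPM, differences of log2(TPM + 1) were computed for genes with at least 1 TPM in either group, over whole tables of 14077 genes (AFT) and 14040 genes (St16), with the share of all genes past the same threshold as background. A limma fit across replicates, planned in case single libraries were present, was not possible with means, and no test was made. Every receptor gene was accounted for, and 10 means were given for those 2-fold apart from the control, the 8 of highest mean, the 4 of largest stage difference per direction and the 4 of largest non-additive value per stage. Means of other genes were chosen after their values were seen. The members and the lists were chosen with earlier results of these data known. Alternatives were pseudocounts of 0.1 and 5 TPM, no filter, a filter of 5 TPM, median-ratio rescaling, quantile normalisation and, as the baseline, the median over the other 4 groups. The plain TPM ratio, the 1.5-fold threshold, the background of 1 to 20 TPM and the stage counts over genes of at least 1 TPM at both stages were added after the data were seen. The tables hold no coordinates, which come from the BDGP6.54 annotation, matched by symbol for 35 of 35 receptor genes. The functions that compute these differences were checked on simulated data. Python 3.11.15, pandas 2.3.3, numpy 2.4.6, scipy 1.17.1 and matplotlib 3.10.9 were used.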

Additional observations from a re-analysis of the deposited data

How the results depend on the processing

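No receptor gene at least 1.5-fold apart changed its direction under the alternatives run, but medians near 0 did. The receptor medians in col and ap + eya at AFT, -0.08 and -0.07, were 0.01 and 0.01 with median-ratio rescaling and 0.02 and 0.04 with quantile normalisation. At St16 those in ap + eya, lbe and col + lbe, -0.02, -0.08 and -0.03, were 0.02, 0.00 and 0.07 with quantile normalisation, and that in ap + eya was 0.03 against the median of the other 4 groups. The median non-additive value at St16, 0.11, was -0.14 with a filter of 5 TPM, and the median of col + lbe minus ap + eya at St16, -0.03, was 0.02 with quantile normalisation. Of 158 recomputed counts and medians of the comparisons, 112 stayed within 1.5 times the count or within 0.1 of the median reported. A count of 0 that stayed at 0 was taken as unchanged, and many of the 112 were of this kind. The only medians among the 158 were those of col + lbe minus control at AFT. The 112 therefore say little about the counts above 0. No paired analysis was possible because the tables hold 1 mean per group, and leaving out each replicate in turn was not run for the same reason. Counts below are of receptor genes at least 2-fold apart unless stated. In col + lbe at AFT the count was 1, and it was 4 with a pseudocount of 0.1 and with the plain TPM ratio, 2 against the median of the other 4 groups, and 0 with a pseudocount of 5, median-ratio rescaling and quantile normalisation. The 12 genes 1.5-fold higher there became 2 with a pseudocount of 5 and 5 with either rescaling. The median relative to all genes, 0.21, was 0.42 with a filter of 5 TPM, 0.31 with the plain ratio and 0.12 with a pseudocount of 5. In col + lbe at St16 the count of 0 became 1 with a pseudocount of 0.1 and with the plain ratio. For col + lbe minus ap + eya at AFT, 5 became 0 with a pseudocount of 5, 3 with the filter of 5 TPM and 1 with either rescaling, and at St16 0 became 2 with the plain ratio. Of the non-additive values at AFT, 7 became 11 with a pseudocount of 0.1, 1 with one of 5, 3 with median-ratio rescaling, 1 with quantile normalisation and 13 with the plain ratio. At St16, 1 became 2 with a pseudocount of 0.1 and with the plain ratio, and 0 with a pseudocount of 5, the filter of 5 TPM and either rescaling. For AFT minus St16, a pseudocount of 5 gave 8 in col + lbe (reported 23), 2 in ap + eya (12), 1 in col (16), 2 in lbe (13) and 2 in the control (15). The filter of 5 TPM gave 15 in col + lbe, 5 in col, 6 in lbe and 9 in the control, where fewer genes were compared. Median-ratio rescaling, which brought the median over all genes in the control to 0.03, gave 21 in lbe, 23 in ap + eya and 23 in the control. In ap + eya a pseudocount of 0.1 gave 19 and the plain ratio 20. Among genes of at least 1 TPM at both stages, col had 10 and lbe 7. At a threshold of 5 TPM, 21 in place of 34 receptor genes were detected in at least 1 column. The cause of these changes was not tested beyond the number of genes compared. With low TPM, 1 mean per group and unknown depth, no difference here could be set against replicate error.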

Other observations

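Receptors of other peptide and protein hormones, outside the 35, were also described in col + lbe embryos at AFT, where 6 of 6 with at least 1 TPM were above the control (63% of all genes), with a median of 0.45 against 0.11 over all genes. Lgr4, a relative of Lgr3, was at 3.30 TPM in col + lbe, against 1.62 TPM in the control (0.72), with 1.13 TPM in col, 1.27 in lbe and 1.17 in ap + eya. The receptor gene hec, known in the fly for its part in courtship, was at 4.74 TPM in col + lbe, against 2.97 TPM in the control (0.53), and at St16 at 1.05 TPM, against 0.339 TPM, where it reached 1 TPM in col + lbe alone. InR, the insulin receptor, had another order of columns at AFT, at 15.8 TPM in ap + eya, 16.3 in col, 11.7 in lbe and 12.6 in col + lbe, against 8.59 TPM in the control. Pdfr, the receptor of the clock peptide Pdf, was at 2.57 TPM in col + lbe, against 2.26 TPM in the control, while Pdf was at 4.70 TPM, against 14.3 TPM.

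Among genes that carry the signal inside the cell, dnc, the cyclic AMP phosphodiesterase, was at 62.0 TPM in ap + eya, 55.1 in col, 52.9 in lbe and 37.9 in col + lbe, against 28.6 TPM in the control at AFT. It was the 1 gene of the 29 that was 2-fold apart from the control in any comparison, in ap + eya (1.09). These genes were named after their values were seen.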
